A study of Mus musculus with 18 samples.

Results

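The miR-34 and miR-449 family was followed in BV-2 cells, an immortalized mouse microglial line, treated with cannabinoids and lipopolysaccharide (LPS). Its members were found by name, as every row of the deposited tables for miR-34a, b or c or miR-449a, b or c, either as the hairpin precursor or as a mature arm. This gave 17 rows, 6 hairpins and 11 mature miRNAs, of the 2134 miRNA features in each table. The 18 small RNA libraries make up 6 groups of 3, named here as the labels name them: Ctrl (untreated), LPS, CBD, THC, CBD_LPS and THC_LPS. Cannabidiol (CBD) and Δ9-tetrahydrocannabinol (THC), isomeric plant cannabinoids, were given at 10 µM for 6 h in all, LPS at 100 ng/ml for 4 h, and in the combined groups (CBD+LPS and THC+LPS) the cannabinoid came 2 h before LPS. All groups come from the same cell line, and no genotype differed between them. Nothing in the labels or methods says that the 3 samples of a group are separate experiments, so the p-values measure the spread between these samples, which may be technical.

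A miRNA finds its target transcripts mainly through its seed, bases 2 to 8 counted from the 5′ end, and lowers their translation and stability. The miR-34 genes are known as direct transcriptional targets of p53, and their products repress cell cycle and Notch pathway genes. The miR-449 genes make arms with the same seed and are known best from multiciliated epithelia, where they act together with miR-34b and miR-34c. Each hairpin is cut by Drosha and Dicer into a 5p and a 3p arm, of which usually 1 is kept.

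The 5p arms that carry the family seed are shown first, since the shared letters are what joins the miR-34 and miR-449 genes. Capitals mark the seed, and the sequences are the RefSeq entries on GRCm38.p6, which held 9 of the 11 mature members. miR-34c-5p and miR-449b had no entry there, so their sequences and seeds could not be shown.
mmu-miR-34a-5p: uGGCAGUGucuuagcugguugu
mmu-miR-34b-5p: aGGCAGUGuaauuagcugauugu
mmu-miR-449a-5p: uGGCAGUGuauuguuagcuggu
mmu-miR-449c-5p: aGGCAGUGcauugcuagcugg
All 4 share the seed GGCAGUG, and no mature mouse miRNA outside the family carried it in that table. Over the whole sequence they differ from miR-34a-5p by an edit distance (substitutions, insertions and deletions) of 4 for miR-34b-5p, 6 for miR-449a-5p and 7 for miR-449c-5p.

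The 3p arms do not carry this seed, and they are shown because miR-34b was read from its 3p side.
mmu-miR-34b-3p: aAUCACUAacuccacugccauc
mmu-miR-34c-3p: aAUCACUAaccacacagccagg
mmu-miR-34a-3p: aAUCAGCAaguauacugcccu
miR-34b-3p and miR-34c-3p have the seed AUCACUA in common and lie an edit distance of 5 apart. A read counted for miR-34b-3p therefore does not count a molecule with the GGCAGUG seed.

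The 6 genes lie in 3 places of the GRCm38 annotation. Mir34a is at chr4:150068454-150068555 on the plus strand, inside an exon of Gm37795, a gene annotated as yet to be experimentally tested. Mir34b (chr9:51103562-51103645) and Mir34c (chr9:51103034-51103110) are on the minus strand with 451 bases between them, in an intron of Btg4, which runs on the plus strand. Mir449c (chr13:113035983-113036091), Mir449b (chr13:113037419-113037498) and Mir449a (chr13:113037534-113037624) lie on the plus strand in an intron of Cdc20b, with 1327 and 35 bases between neighbours.

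Reads were recovered from the deposited CPM, because each sample's values are whole multiples of what 1 read is worth. The listed features held 442718 to 1057147 reads per sample (median 773271), so that 3 reads, taken here as the limit of detection, stood for 2.98 to 6.38 CPM. The family took 1820 of 13670564 reads, or 0.0133%, and between 0.0093% and 0.0162% in single samples. Intervals on read numbers given below cover counting error only. Of the markers listed for BV-2 microglia as blood lineage, 5 of 7 names had rows and summed to 32500 to 66904 CPM. Over all samples together, though not in every sample, most of this was miR-21a-5p (14844 to 44087 CPM), which the paper lists as raised by LPS. The sum was 35089 to 37066 CPM in Ctrl and 66040 to 66904 CPM in LPS. miR-142-5p was at 7254 to 12346 CPM and miR-223-3p at 48.5 to 178 CPM. All 3 listed neuronal markers had rows and summed to 420 to 666 CPM, mostly miR-128-3p (409 to 651 CPM), while miR-9-5p had 118 reads and miR-124-3p 4 in all samples together. This sum was 460 to 666 CPM in Ctrl and 512 to 597 CPM in CBD, overlapping ranges. Summed epithelial markers lay between 5678 and 9345 CPM, almost wholly miR-141-3p, while miR-205-5p had 1 read. The epithelial sum was 6826 to 8298 CPM in Ctrl and 6654 to 7955 CPM in CBD, overlapping ranges. Samples stood apart in 2 ways that the groups do not explain, a difference between label numbers 22 to 27 and 28 to 39, and the share taken by the hairpins mir-6243, mir-6240 and mir-6236 (0.151% to 4.55% over samples), which was under 1% in Ctrl 22, THC_LPS 27, CBD 30 and CBD 36.

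Most family reads belonged to 2 arms. miR-34a-5p had 999 reads (54.9% of the family) and ranked 281 among all features by reads. miR-34b-3p followed with 584 reads (32.1%, rank 349). The next rows were far lower, with 57 reads for miR-449c-5p, 49 for the hairpin mmu-mir-34a and 32 for mmu-miR-449a-5p over 18 samples. The other tested rows were the hairpins mir-34b (17 reads), mir-449c (16), mmu-mir-449a (13), mir-449b (11) and mir-34c (10) and the arms miR-34a-3p (12) and miR-34c-5p (11). Those 12 rows reached the filter of 10 reads over all samples. The 5 below it were miR-34c-3p with 4 reads, miR-449b with 3, mmu-miR-449a-3p and miR-449c-3p with 1 each, and miR-34b-5p with no read. miR-34b-5p, whose sequence is printed above, was thus not detected, which for 0 reads allows up to 6.38 CPM in the shallowest sample.

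**Figure D1:**
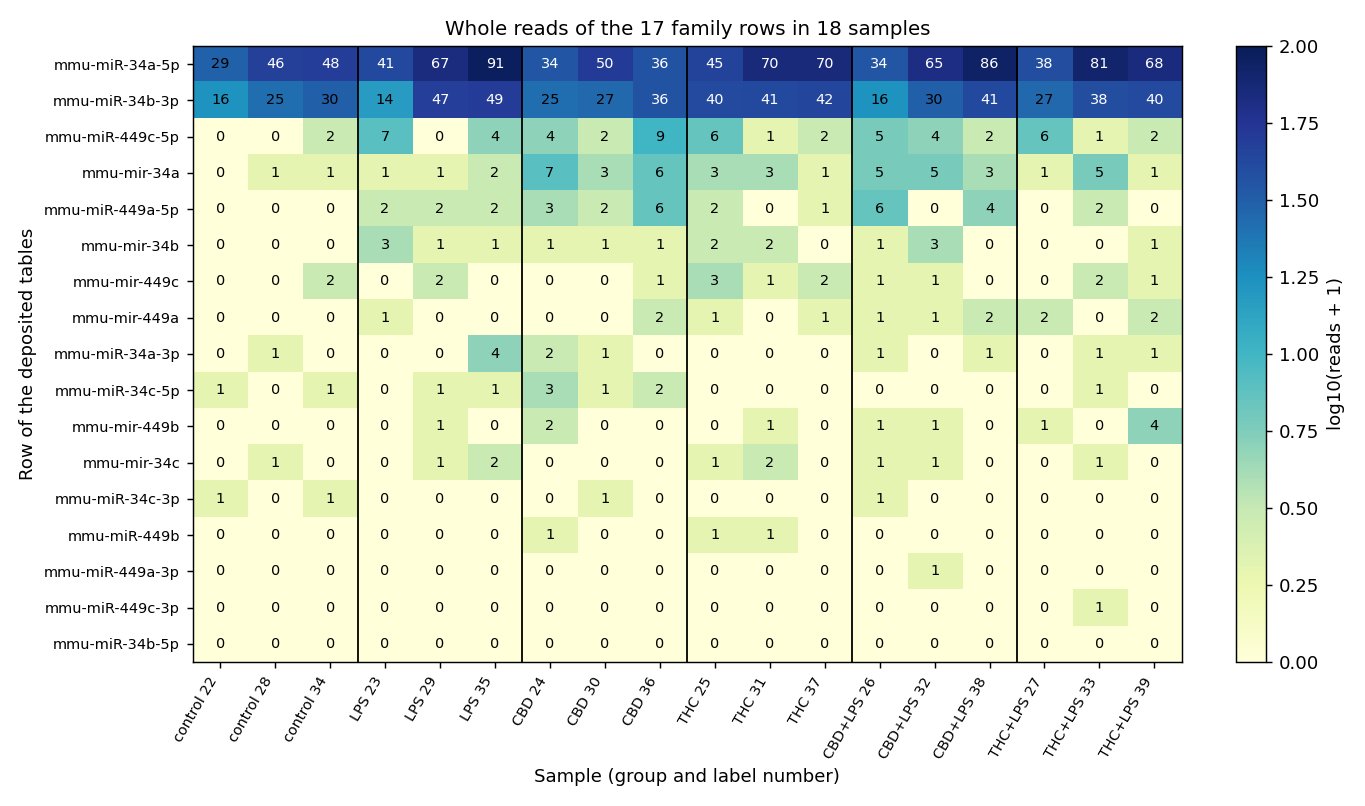
Whole reads of each of the 17 family rows (vertical axis, ordered by total) in each of the 18 samples (horizontal axis, grouped by treatment and named by label number); the colour gives log10(reads + 1). miR-34a-5p (29 to 91 reads) and miR-34b-3p (14 to 49) fill the top rows in every sample, and no other row passes 9 reads in any sample.

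The arms were used unevenly. The 5p arm held 98.8% of the arm reads of miR-34a, 97.0% of miR-449a and 98.3% of miR-449c. miR-34b went the other way, with 584 reads of the 3p arm and 0 of the 5p arm. miR-34c had 11 reads of the 5p and 4 of the 3p arm. By gene group, the miR-34 rows held 1686 reads (92.6% of the family) and the miR-449 rows 134 (7.36%). These are reads, not levels per length; the mature arms printed here are 21 to 23 bases long, and the hairpins are longer.

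miR-34a-5p, the arm usually meant by the name miR-34a, did not differ detectably between the 6 treatments (limma F test, adjusted p = 0.9997). The Ctrl samples held 29, 46 and 48 reads (61.7, 78.7 and 55.9 CPM) and the CBD samples 34, 50 and 36 (48.8, 93.9 and 56.9 CPM). The CBD samples lay around the Ctrl samples, at 66.5 ± 24.05 against 65.4 ± 11.8 CPM (mean ± SD, n = 3 each). The log2 fold change of CPM + 1, the scale of every fold change below, was -0.02 for CBD against control. Its 95% interval ran from -0.83 to 0.79. The paper reports otherwise for this arm by qPCR, a several-fold rise with CBD that grew with the dose. The interval from the sequencing reads does not reach a rise of that size. What lies behind the difference between the qPCR and the sequencing was not tested.

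In the other groups miR-34a-5p was at 53.6, 88.7 and 93.7 CPM in LPS and 44.7, 82.6 and 94.6 CPM in THC. It was at 38.3, 86.3 and 103 CPM in CBD_LPS and 67.5, 95.7 and 77.9 CPM in THC_LPS. Ordered by mean, the groups ran from Ctrl (65.4) over CBD (66.5), THC (74.0), CBD_LPS (75.9) and LPS (78.7) to THC_LPS (80.4), and each neighbour in that order differed by less than the SD of either. LPS pooled over the cannabinoid groups gave a log2 fold change of 0.18 (interval -0.26 to 0.62), CBD pooled over LPS gave -0.07 (-0.61 to 0.47) and THC pooled over LPS gave 0.09 (-0.45 to 0.63).

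What moved with miR-34a-5p was the label number. Its mean was 52.4 CPM in the 6 samples numbered 22 to 27 (221 reads) and 84.0 CPM in the 12 numbered 28 to 39 (778 reads), and the sample of the lower numbers was the lowest of its group in 5 of 6 groups. miR-34b-3p was arranged alike, at 32.3 and 48.6 CPM, lowest in 5 of 6 groups. miR-449c-5p was the reverse, at 6.19 and 3.29 CPM, with the first sample the highest in 4 of 6 groups. The part of preparation or handling in this was not tested, and the labels do not say what the numbers stand for. Among samples 28 to 39 alone the log2 fold change of miR-34a-5p for CBD against control was 0.14.

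miR-34b-3p, an arm without the family seed, also showed no detectable treatment effect (limma F test, adjusted p = 0.996). It was at 34.03, 42.7 and 34.95 CPM in Ctrl and 35.9, 50.7 and 56.9 CPM in CBD, so that every CBD sample was above 2 of the 3 Ctrl samples but the groups overlapped. The THC samples, at 39.8, 48.4 and 56.7 CPM, overlapped Ctrl as well. LPS spanned 18.3 to 62.2 CPM and CBD_LPS 18.04 to 49.2 CPM, the widest ranges, with the lowest values in samples 23 and 26. THC_LPS, at 48.0, 44.9 and 45.8 CPM, was above every Ctrl sample, as were 4.99% of all tested features, with a log2 fold change of 0.31 (interval -0.56 to 1.18). The change for CBD against control was 0.33 (-0.53 to 1.202).

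**Figure D2:**
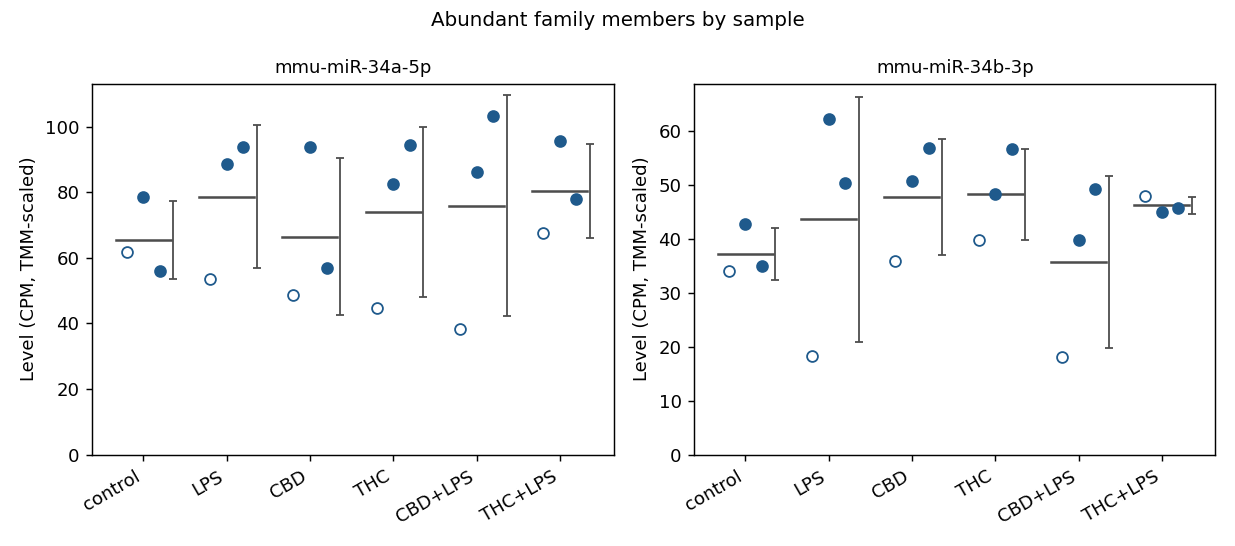
Levels of miR-34a-5p and miR-34b-3p (vertical axis, CPM) in each sample of the 6 groups; points are samples, open for label numbers 22 to 27 and filled for 28 to 39, the line is the group mean and the bar beside it ± 1 SD of 3 samples. Group means lie between 65.4 and 80.4 CPM and between 35.7 and 48.3 CPM, and the open point is the lowest of its group in 5 of 6 groups in each panel.

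Over the 18 samples, the features whose level followed miR-34a-5p most closely among the 659 with at least 100 reads were miR-181c-5p (Spearman's rho = 0.91), miR-1843a-5p (0.87) and miR-3964 (0.87). The most opposed were miR-126-5p (-0.81), mir-5098 (-0.81) and miR-126-3p (-0.72). In the 12 samples numbered 28 to 39 these values were 0.78, 0.63 and 0.68, and -0.46, -0.71 and -0.36. Between miR-34a-5p and miR-34b-3p, which come from different chromosomes, rho was 0.67 in all samples and 0.29 in those 12. The points share pool, depth and the label-number difference, and the values are given as a description.

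The hairpin row mmu-mir-34a, in contrast to its 5p arm, was higher with CBD. Ctrl held 0, 1 and 1 reads (0, 1.71 and 1.17 CPM) and CBD held 7, 3 and 6 (10.0, 5.63 and 9.48 CPM). LPS held 1, 1 and 2 reads (1.31, 1.32 and 2.06 CPM) and CBD_LPS held 5, 5 and 3 (5.64, 6.64 and 3.60 CPM). Every sample with CBD was above every sample of Ctrl and LPS. THC held 3, 3 and 1 reads (2.98, 3.54 and 1.35 CPM) and THC_LPS 1, 5 and 1 (1.78, 5.91 and 1.15 CPM), which overlapped the groups without a cannabinoid. In bulk RNA, more cells with a transcript and more of it per cell cannot be told apart.

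A comparison of 2 groups was called at an unadjusted limma p of at most 0.005 with at least a 1.5-fold change, and the F test, the pooled effects and the interactions at an adjusted p of at most 0.1. For CBD against control mir-34a rose, with a log2 fold change of 2.34 (SE 0.54, interval 1.21 to 3.48, limma adjusted p = 0.0915). In summed reads this was 16 against 2, a ratio of 8.22 after scaling, with a counting interval from 1.93 to 73.7. It also rose for CBD+LPS against control, by 1.77 (SE 0.54, limma adjusted p = 0.329). Against LPS alone, CBD+LPS gave 1.28 (interval 0.14 to 2.41), and this was not called.

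With both CBD groups set against the groups without cannabinoid, mir-34a was at 6.84 ± 2.48 against 1.26 ± 0.70 CPM (29 against 6 reads, 6 samples each). The lowest value with CBD, 3.60 CPM, was above the highest without, 2.06 CPM. The pooled CBD effect on the log2 scale was 1.81 (SE 0.38, interval 1.01 to 2.61, limma adjusted p = 0.0649), and an exact 2-sided permutation test within the LPS strata gave p = 0.005, the smallest that its 400 regroupings allow. This was unadjusted and the lowest of 36 such tests on the 12 rows and 3 treatments. THC pooled over LPS gave 0.70 (interval -0.10 to 1.498), and LPS pooled gave -0.03 (-0.68 to 0.62).

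The calls on mir-34a rest on few reads and on the tool. edgeR on the recovered reads called the row for CBD against control (log2 fold change 2.83) and for pooled CBD but not for CBD+LPS against control, while DESeq2 called it in neither comparison with control (2.95 for CBD) and gave it no adjusted p for pooled CBD. With the label numbers 22 to 27, 28 to 33 and 34 to 39, each holding 1 sample of every group, fitted as a block, CBD against control stayed called (limma adjusted p = 0.0905), as did pooled CBD (limma adjusted p = 0.0631), and CBD+LPS against control was not called (limma adjusted p = 0.263). Leaving out 1 sample at a time ended the pooled CBD call in 10 of 18 fits and the call for CBD+LPS against control in 12 of 18, while CBD against control stayed called in all 18. Among samples 28 to 39 alone the changes were 1.78 for CBD against control (limma adjusted p = 0.12) and 1.47 for pooled CBD (limma adjusted p = 0.11), neither called. Both CBD 30 and CBD 36 belong to the 4 samples in which mir-6243, mir-6240 and mir-6236 took under 1% of reads. With the summed level of these hairpins as a covariate (the composition covariate), mir-34a stayed called for CBD against control and for pooled CBD. CBD+LPS against control was not called with it. What lies behind the low share was not tested. Without samples 22, 27, 30 and 36 the change for CBD against control was 2.19 (limma adjusted p = 0.418), not called, and the Ctrl group then had 2 samples and CBD 1, whose spread is assumed to match the others'.

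Set against its own mature arm, the hairpin had 13.3 reads per 100 reads of miR-34a-5p in CBD and 7.03 in CBD_LPS, compared with 1.63 in Ctrl and 2.01 in LPS. THC and THC_LPS were at 3.78 and 3.74. Single samples spanned 6.0 to 20.6 in CBD and 3.49 to 14.7 in CBD_LPS. They spanned 1.43 to 6.67 in THC and 1.47 to 6.17 in THC_LPS, so the CBD and THC groups overlapped. The log2 ratio of hairpin to 5p was 1.88 higher with CBD (exact permutation test, p = 0.005, the smallest possible). With samples 28 to 39 alone it was 1.37 higher (exact permutation p = 0.0556). For THC the same test gave 0.61 (exact permutation p = 0.15) and for LPS -0.21 (exact permutation p = 0.558). This ratio was chosen after the values were seen. It reuses the mir-34a reads tested above, so its p-value adds no separate support. How the authors divided reads between a hairpin row and its mature rows is not given in the sources used here. Hairpins at large did not rise with CBD against control: their median log2 fold change was -0.11 over 642 tested hairpins and 0.06 over 721 mature rows.

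The miR-449 rows together held 4 reads in Ctrl, 21 in LPS, 32 in CBD, 23 in THC, 30 in CBD_LPS and 24 in THC_LPS. On the level scale these sums were 1.55 ± 2.69, 8.63 ± 3.86, 16.8 ± 10.7, 8.58 ± 4.12, 12.004 ± 3.32 and 11.1 ± 4.51 CPM (SD, n = 3 each). Ctrl was the lowest group by mean, and the ranges of all treated groups lay above its highest sample, at 4.66 CPM. The lowest THC sample was at 4.72 CPM, a margin smaller than a single read is worth. All 4 Ctrl reads came from Ctrl 34, and Ctrl 22 was the shallowest sample. The share of features with this order was not computed, so it is given as a description.

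mmu-miR-449a-5p, a 5p arm with the family seed, had no read in any Ctrl sample. It had 3, 2 and 6 reads in CBD (4.30, 3.76 and 9.48 CPM), 2, 2 and 2 in LPS (2.62, 2.65 and 2.06 CPM) and 6, 0 and 4 in CBD_LPS (6.77, 0 and 4.798 CPM). THC held 2, 0 and 1 reads and THC_LPS 0, 2 and 0. The CBD samples were thus above all Ctrl samples, and the CBD_LPS samples were not, since 1 of them had no read.

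miR-449a-5p rose for CBD against control (log2 fold change 2.68, SE 0.70, limma adjusted p = 0.159). Not called were LPS (1.78, limma adjusted p = 0.762) and CBD+LPS (1.83, limma adjusted p = 0.533) against control. Since Ctrl is at 0, these fitted values depend on the added 1 CPM. Over both LPS states the level was 4.85 ± 3.17 CPM with CBD and 1.22 ± 1.35 without (exact permutation p = 0.025, unadjusted), and the pooled fit gave 1.37 (interval 0.17 to 2.56, limma adjusted p = 0.578). The CBD by LPS interaction was -2.63 (limma adjusted p = 0.909). Without CBD 36, the sample with 6 reads, the change against control was 2.33 and was no longer called. edgeR called the change for CBD against control as well, and DESeq2 did not. With labels exchanged only within the sets of label numbers, the exact permutation p for pooled CBD was 0.0625, where 0.0313 is the smallest that 64 regroupings allow.

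miR-449c-5p, the most read miR-449 arm, held 0, 0 and 2 reads in Ctrl and 4, 2 and 9 in CBD. It held 7, 0 and 4 reads in LPS, 6, 1 and 2 in THC, 5, 4 and 2 in CBD_LPS and 6, 1 and 2 in THC_LPS. In CPM every CBD and CBD_LPS sample was above every Ctrl sample, as in 6.9% and 4.77% of all tested features. Both orders rest on scaling. CBD 30, CBD_LPS 38 and Ctrl 34 held 2 reads each (3.76, 2.40 and 2.33 CPM), under the detection limit of 3. The log2 fold changes were 2.40 (interval 0.63 to 4.17, limma adjusted p = 0.311) and 1.81 (0.04 to 3.58, limma adjusted p = 0.774), and neither met the call criterion. The hairpin mmu-mir-449a, with 0 reads in Ctrl and 1, 1 and 2 in CBD_LPS, gave 1.36 for CBD+LPS against control (limma adjusted p = 0.776) and was not called either. The other miR-449 rows stayed at or below 4 reads in every sample.

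**Figure D3:**
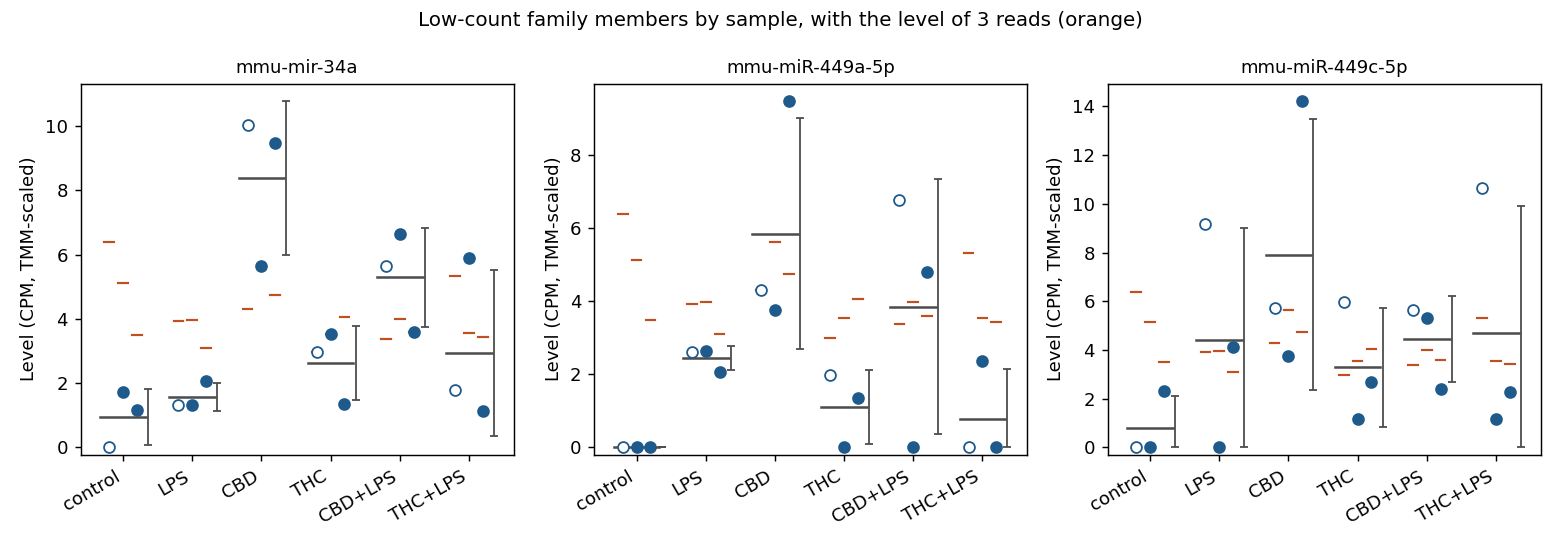
Levels of the mir-34a hairpin, miR-449a-5p and miR-449c-5p (vertical axes, CPM, separate scales) in each sample; points are samples, open for label numbers 22 to 27, lines are group means, bars ± 1 SD of 3 samples cut at 0, and orange dashes mark 3 reads in that sample. All CBD points of mir-34a (5.63 to 10.0 CPM) lie at or above their 3-read mark and all Ctrl points (0 to 1.71 CPM) below it, while miR-449a-5p is at 0 in the 3 Ctrl samples.

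Of the other miR-34 rows, miR-34c-5p had 3, 1 and 2 reads in CBD and none in THC or CBD_LPS. Ctrl held 1, 0 and 1 reads, LPS 0, 1 and 1, and THC_LPS 0, 1 and 0. It was called for CBD against THC (log2 fold change 1.996, interval 0.94 to 3.05, limma adjusted p = 0.115). Since only 5 of its 11 reads lay outside CBD, the row reached the filter of 10 reads through the group in which it is high, so this value is a description and carries no weight as a test. DESeq2 did not call it. In samples 28 to 39 alone this difference was 1.79 and was not called, nor was it called without CBD 24. Against control the same CBD samples gave 1.08 (limma adjusted p = 0.525), not called. The hairpin mir-34b had no read in Ctrl, 3, 1 and 1 in LPS and 1, 1 and 1 in CBD, with changes of 1.51 (limma adjusted p = 0.762) and 1.39 (limma adjusted p = 0.51) against control that were not called. miR-34a-3p (highest sample 4 reads) and the mir-34c hairpin (2 reads) were not called in any comparison.

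Counted over the family with limma, CBD had the most calls. For CBD against control 2 of the 12 tested rows were called, both upwards, where 1.61% of all 1363 tested features were called. edgeR called the same 2 rows and DESeq2 none. For CBD+LPS against control it was 1 of 12, with 1.39% of all features, and edgeR and DESeq2 called 0. For CBD pooled over LPS it was 1 of 12, with 0.293%. Rows with next to no reads in Ctrl could reach the filter of 10 reads only through the treated samples, so these counts describe the rows and carry no test. The median log2 fold change of the tested rows was above that of all features in every comparison with control, at 0.68 for CBD (0.00 over all features), 0.59 for THC (0.08), 0.53 for CBD+LPS (0.04), 0.40 for LPS (0.11) and 0.37 for THC+LPS (0.03). These comparisons share the Ctrl samples. The same limit of the filter holds for these medians, so they carry no test either. The 2 rows with most reads, miR-34a-5p and miR-34b-3p, gave -0.02 and 0.33 for CBD against control.

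No member was called for LPS (1.54% of all features), THC (0.44%) or THC+LPS (1.83%) against control. At an unadjusted limma p under 0.05 there were 2, 0 and 0 members, beside 80, 46 and 65 of all 1363 tested features. edgeR and DESeq2 called 0 members in each. Nor was a member called for CBD+LPS against LPS (0.22%), THC+LPS against LPS (0.22%), or CBD+LPS against THC+LPS (0.147%). There 1, 0 and 0 members had an unadjusted limma p under 0.05, beside 44, 32 and 36 of all tested features. Both other tools called 0 members. The F test across the 6 groups called 1.76% of all features and no member, the lowest adjusted p being 0.229 for mir-34a (limma). LPS pooled over cannabinoid called 1.54% and THC pooled over LPS 0%, none of them members. No member had an unadjusted limma p under 0.05 in either, beside 95 and 41 of all tested features. The CBD by LPS and THC by LPS interactions called 0% of all features each. An unadjusted limma p under 0.05 was reached by 2 members in each, beside 65 and 51 of all tested features. The deposited scaling placed the median of all features at 0.11 on the log2 scale for LPS against control, and scaling by library size placed it at -0.02; no call on a member for LPS depended on this.

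By the plain order of samples, without a model, 4 members had every CBD sample above every Ctrl sample, namely mir-34a, mir-34b, miR-449a-5p and miR-449c-5p, where 6.9% of all tested features did. For CBD+LPS against control there were 3 (mir-34a, mir-449a and miR-449c-5p; 4.77% of features), for LPS against control 2 (mir-34b and miR-449a-5p; 5.58%) and for CBD+LPS against LPS 1 (mir-34a; 3.45%). For CBD against THC there were 3 (mir-34a, miR-34c-5p and miR-449a-5p; 10.1%). With both CBD groups above both groups without a cannabinoid there was 1, mir-34a, against 0.367% of features. Of the rows named, mir-34b, mir-449a and miR-449a-5p had no read in Ctrl, and miR-449c-5p rested on equal read numbers. Rows with next to no reads in Ctrl could reach the filter of 10 reads only through the treated samples. These counts therefore describe the rows and carry no test.

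CBD and THC, which differ in structure by the closed pyran ring of THC, were compared at the same dose and time. In resting cells 1 of 12 members was called, miR-34c-5p, where 3.3% of all features were called. As that row passed the read filter only through its CBD reads, and DESeq2 called 0 members, nothing is read from the count. mir-34a was 1.39 higher with CBD than with THC (interval 0.25 to 2.53, limma adjusted p = 0.187) and miR-449a-5p 1.74 higher (0.26 to 3.23, limma adjusted p = 0.212), neither called. For miR-34a-5p the difference was -0.14 (interval -0.95 to 0.67) and for miR-34b-3p -0.03 (-0.89 to 0.84), which leaves room for a change in either direction. In LPS-treated cells mir-34a differed by 0.83 (interval -0.30 to 1.97) and miR-449a-5p by 1.248 (-0.24 to 2.73).

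**Figure D4:**
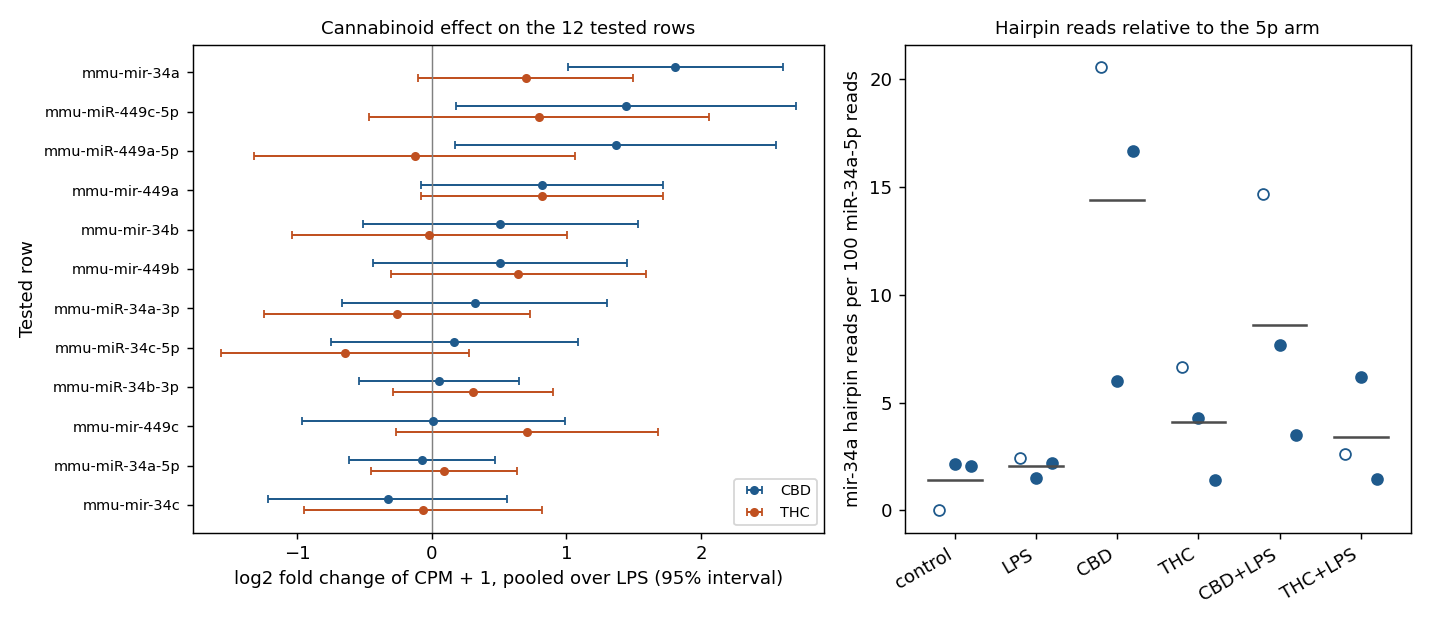
Left, log2 fold change of CPM + 1 for CBD and for THC, each pooled over LPS, with 95% intervals (horizontal axis) for the 12 tested rows; right, hairpin reads of mir-34a per 100 reads of miR-34a-5p in each sample, open for label numbers 22 to 27, with group means as lines. mir-34a has the highest CBD effect, 1.81 (interval 1.01 to 2.61), and the intervals of miR-34a-5p and miR-34b-3p include 0 for both compounds. The 3 CBD samples lie at 6.0 to 20.6 hairpin reads per 100, and the THC samples, at 1.43 to 6.67, overlap them.

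Other miRNAs that p53 is known to raise or to help mature were read from a list of mature arms of miR-15a, miR-16, miR-107, miR-141, miR-143, miR-145a, miR-192, miR-194, miR-200c and miR-215. Of its 22 rows 17 were tested. None was called for CBD or THC against control, for CBD or THC pooled over LPS, or for CBD against THC. Of all tested features 1.61%, 0.44%, 0.293%, 0% and 3.3% were called there. An unadjusted limma p under 0.05 was reached by 1, 0, 0, 1 and 2 of the 17, beside 125, 46, 93, 41 and 221 of all 1363 tested features. These counts are not read as a result about the list. The median log2 fold change for CBD against control was 0.12, beside 0.00 over all features. With LPS 1 of 17 rose, where 1.54% of all features were called. This was miR-145a-3p, by 0.85 against control (limma adjusted p = 0.039). It was also called for CBD+LPS and THC+LPS against control (1.39% and 1.83% of all features), and in the same direction.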

How the data were processed

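Small RNA libraries (TruSeq, Illumina HiSeq, a single pool) of 18 BV-2 samples in 6 groups of 3 were analysed. According to the methods, the authors aligned reads with BWA to the mouse miRBase reference, with at most 10 mappings per read, and used edgeR. The miRBase release and strand handling of the alignment are not given in the sources used here. A read that maps to a hairpin and its arm, or to a near-identical member, could be counted for either. The deposited values are CPM (reads scaled to a fixed library total) with TMM scaling; for 11 samples, whose deposited values sum to more than CPM can, they were recorded as signal, on the same scale. Whole reads were recovered by dividing by each sample's smallest non-zero value, and 100% of values came out whole (tolerance 0.001). The listed features are part of each library, so their total is not its sequencing depth.

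The 1363 of 2134 features that reached 10 reads in total were tested with limma 3.58.1 (R 4.3.3), with a mean-variance trend on log2(CPM + 1) in a model of 6 groups, and in an additive model (LPS, CBD, THC) for pooled effects. Adding 1 CPM understates the change of low rows. Adjusted p-values are Benjamini-Hochberg over all tested features. Pairwise calls used an unadjusted p of at most 0.005 with at least a 1.5-fold change, and the F test, pooled effects and interactions an adjusted p of at most 0.1. Exact permutation tests used NumPy 2.4.6, and the counting intervals of read ratios used SciPy 1.17.1. edgeR 4.0.16 and DESeq2 1.42.0 were run on recovered reads as alternatives. The limma and edgeR fits were checked on simulated data, with recovery of planted changes required only for features with at least 100 reads. The called members hold fewer, so the check does not show how well changes in such rows are recovered. Named were all rows matching the family names, the called members of the p53 list and the 3 features most and least alike to the most read member among those with at least 100 reads. Members and lists were chosen with earlier results of these data known. Sequences came from RefSeq (GRCm38.p6) and positions from GENCODE on GRCm38; the deposited tables carry no coordinates.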

Additional observations from a re-analysis of the deposited data

Results flagged for a closer look

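The hairpin mir-34a was marked because every LPS sample lay above the Ctrl mean and every CBD_LPS sample below the CBD mean, and the LPS effect with CBD was -3.70 CPM relative to that without. Sample by sample the groups overlapped in both cases, and LPS against control was 0.49 on the log2 scale (interval -0.64 to 1.63). The CBD by LPS interaction on the log2 scale was -1.07 (interval -2.68 to 0.54, limma adjusted p = 0.983), so the difference did not pass.

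The hairpin mir-34b was marked because every LPS sample lay above the Ctrl mean, at 0, and every THC_LPS sample below the THC mean, a difference of -3.16 CPM that rests on 10 reads in the 4 groups. The THC and THC_LPS samples overlapped. Its THC by LPS interaction was -2.25 (limma adjusted p = 0.935).

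miR-34c-5p was marked because every CBD sample lay above the Ctrl mean and every CBD_LPS sample, at 0, below the LPS mean, a difference of -2.80 CPM with 6 reads in CBD and 0 in CBD_LPS. The CBD and Ctrl samples overlapped, as did CBD_LPS and LPS. The interaction was -1.82 (limma adjusted p = 0.909). Groups of 3 samples are too small for the test of single outlying samples.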

How the results depend on the processing

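Calls on members rest on few reads: apart from miR-34a-5p and miR-34b-3p no row passed 9 reads in a sample, so a difference of a few reads decides them, and changes below several-fold were not detectable there. The groups share no replicate numbers, each of 22 to 39 being used once, but the numbers form 3 consecutive sets with 1 sample of every group; the labels do not say that a set marks a shared culture or day. With these sets as a block the call for CBD+LPS against control was lost (1 to 0, change 1.77), the 2 permutation results became 1 (mir-34a for CBD), and the block changed no other call. The settings with this block, a covariate for samples 22 to 27, without samples 22, 27, 30 and 36, and the hairpin ratio were chosen after seeing the data.

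The call for CBD+LPS against control fell from 1 to 0 under scaling by library size, the filter of 1 read, filterByExpr, edgeR, DESeq2, samples 28 to 39 alone, the composition covariate, the covariate for samples 22 to 27 and without samples 22, 27, 30 and 36. The 2 calls for CBD against control and the 1 for CBD against THC fell to 0 under filterByExpr, DESeq2, samples 28 to 39 alone and without samples 22, 27, 30 and 36. The pooled CBD call fell from 1 to 0 under filterByExpr, the filter of 1 read (adjusted p = 0.167), samples 28 to 39 alone and without samples 22, 27, 30 and 36; DESeq2 gave mir-34a no adjusted p there. filterByExpr removes all rows but the abundant ones, and the last setting and samples 28 to 39 have fewer samples; otherwise the cause was not tested. The F test gained 1 call, mir-34a, with the composition covariate. The 2 exact permutation results at p of at most 0.05 became 0 in samples 28 to 39 alone. RLE scaling and pseudocounts of 0.5 and 2 left every count within 1.5 times.

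Leaving out single samples gave 0 to 1 calls for the F test, 1 to 3 for CBD against control, 0 to 1 for CBD+LPS against control, for CBD against THC, for CBD+LPS against THC+LPS and for pooled CBD, and 1 to 5 permutation results. The pooled CBD call was lost without any of Ctrl 22, 28 or 34, LPS 23, 29 or 35, CBD 24, 30 or 36 or CBD_LPS 26, while the change stayed between 1.57 and 1.96. mir-34a for CBD against control stayed called in every such fit, at 1.92 to 2.64; CBD against THC lost miR-34c-5p without CBD 24, and CBD against control lost miR-449a-5p without CBD 36. The 1 call for CBD+LPS against control was lost without any of Ctrl 22 or 34, LPS 23, 29 or 35, CBD 24 or 36, THC 25 or 31 or CBD_LPS 26 or 38. Without CBD_LPS 32 it passed to miR-449a-5p, which then was also called in the F test and for CBD+LPS against THC+LPS. Without Ctrl 34 or LPS 29, CBD against control gained miR-449c-5p. Permutation results numbered 1 without Ctrl 22, Ctrl 34 or CBD_LPS 26, 4 without LPS 23 and 5 without THC_LPS 33.

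Changes near 0 changed sign: miR-34a-5p for CBD against control (0.014 with edgeR, 0.14 in samples 28 to 39, -0.29 to 0.17 leaving out 1 sample) and pooled CBD (0.094 in samples 28 to 39, -0.19 to 0.12), and miR-34b-3p for pooled LPS (0.016 in samples 28 to 39), pooled CBD (-0.023 with the composition covariate, -0.19 without samples 22, 27, 30 and 36, -0.15 to 0.27 leaving out 1) and CBD against control (-0.11 without samples 22, 27, 30 and 36).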
